A study of Mus musculus with 4 samples.

Results

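The mouse genes whose symbols begin with Ube2 encode ubiquitin-conjugating (E2) enzymes and close relatives, and 37 of the 23936 gene rows of the deposited table carry such a symbol once pseudogene and combined names are left out. Their RNA was measured in G1ER cells, mouse erythroblasts without functional endogenous GATA1 that carry GATA1 fused to the estrogen receptor. Chd7-/- G1ER cells after 24 h of beta-estradiol, Chd7-/- cells at 0 h, wild-type G1ER cells at 24 h and wild-type cells at 0 h gave 1 library each. Time was read from the sample titles, since all 4 libraries have the same treatment label, and all cultures were kept in EPO and SCF. Below, knockout means the Chd7-/- cells, and the sources used here do not say whether they are 1 clone. The study's design text names the effect of losing CHD7, a chromatin remodeller, on erythroid differentiation as its question.

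An E1 enzyme activates ubiquitin or a ubiquitin-like protein and passes it to the active-site cysteine of an E2. The E2 then works with an E3 ligase, which selects the substrate, and the E2 often decides the kind of chain that is built. Maturing red cells use this system to remodel their proteome, and in mice the large E2/E3 hybrid UBE2O removes ribosomes from reticulocytes while UBE2H works with the CTLH ligase containing MAEA.

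All values are FPKM (fragments per kilobase of transcript, scaled per library by the authors). Ratios are log2 ratios of FPKM + 1, which understate the change of low genes. A gene was taken as measured when its 4 values averaged 1 FPKM or more, which held for 8964 genes and for 30 of the 37 Ube2 genes. As each group is a single library, nothing was tested, and every difference is between these libraries. The approximate depth was 15.9 and 14.8 M fragments (M, mega) in the knockout libraries at 24 and 0 h, and 17.7 and 15.0 M in the wild-type libraries at 24 and 0 h. From these depths a 95% half-width was set around each log2 ratio, and it covers counting error only.

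The scaling behind the values bears on every ratio that uses the knockout library at 0 h. Small RNA, ribosomal and predicted loci took 69.5% of its summed FPKM, against 33.8% in the knockout at 24 h, 30.4% in wild type at 24 h and 43.6% in wild type at 0 h. Scaling every library to an equal sum (TPM) therefore moved the median log2 ratio of all genes. In the knockout it moved to 0.83 at 24 h against 0 h, where the deposited FPKM gave -0.12, and in wild type to 0.11, where they gave -0.11. For knockout against wild type at 0 h it moved to -0.78, where the deposited values gave -0.07. The difference of the responses moved to 0.72, where the deposited values gave -0.02, and knockout against wild type at 24 h moved to -0.04, where they gave -0.09. Directions below are those of the deposited FPKM, and a value relative to the median is a log2 ratio minus the median of all measured genes in that comparison. Chd7 was listed at 0 in all 4 libraries, wild type included, so its row could not check the genotype labels.

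The cells carried the markers of their label. All 9 erythroid markers were measured, with summed levels of 17008 and 1075 FPKM in the knockout at 24 and 0 h, and 10195 and 843 FPKM in wild type at 24 and 0 h. Of 6 mast cell and basophil markers 3 were measured. Their sum was 2.75 and 63.7 FPKM in the knockout at 24 and 0 h, and 5.77 and 36.6 FPKM in wild type at 24 and 0 h, while Mcpt8 and Prss34 were listed at 0. The 6 myeloid markers summed to between 1.23 and 5.80 FPKM with Mpo, Elane and Ctsg at 0, and the 5 megakaryocyte markers to between 4.13 and 5.44 FPKM with Gp1bb and Ppbp at 0. In bulk libraries fewer cells of a type and less RNA per cell cannot be told apart.

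Of the 7 Ube2 genes that were not measured, 6 were listed at 0 in all 4 libraries, namely Ube2d1, Ube2dnl1, Ube2dnl2, Ube2e2, Ube2ql1 and Ube2u. A listed 0 need not be a measured absence in this table. Ube2d2b, whose coding sequence matches 92.6% of that of Ube2d2a, had 0.290 and 0.355 FPKM in the knockout at 24 and 0 h and 0.221 and 0.0881 FPKM in wild type at 24 and 0 h.

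Ube2l6 and Ube2h were the 2 members at least 1.5-fold higher at 24 h in both genotypes on deposited FPKM. The sequence before their transcription starts is shown for that reason. The windows are the 250 bases upstream of RefSeq starts in GRCm38.p6, read 5′ to 3′ on the gene's strand. Ube2l6 lies on chr2:84798828-84810003 (plus strand) and its window is chr2:84798578-84798827. Ube2h lies on chr6:30211289-30304539 (minus strand). Its outer start has the window chr6:30304540-30304789, and a start inside the gene has the window chr6:30243804-30244053. Capitals mark a GATA match, the letters bound by GATA1.
Ube2l6 upstream: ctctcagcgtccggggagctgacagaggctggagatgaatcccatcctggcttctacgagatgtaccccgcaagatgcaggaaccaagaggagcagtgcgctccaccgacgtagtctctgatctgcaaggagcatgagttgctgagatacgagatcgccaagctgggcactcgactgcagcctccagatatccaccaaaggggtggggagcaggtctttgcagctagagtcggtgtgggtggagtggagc
Ube2h upstream of the outer start: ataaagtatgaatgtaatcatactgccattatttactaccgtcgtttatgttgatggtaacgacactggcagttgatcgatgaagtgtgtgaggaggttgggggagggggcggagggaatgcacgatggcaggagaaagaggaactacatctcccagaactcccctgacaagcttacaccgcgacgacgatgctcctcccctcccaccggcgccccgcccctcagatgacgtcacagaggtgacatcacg
Ube2h upstream of the inner start: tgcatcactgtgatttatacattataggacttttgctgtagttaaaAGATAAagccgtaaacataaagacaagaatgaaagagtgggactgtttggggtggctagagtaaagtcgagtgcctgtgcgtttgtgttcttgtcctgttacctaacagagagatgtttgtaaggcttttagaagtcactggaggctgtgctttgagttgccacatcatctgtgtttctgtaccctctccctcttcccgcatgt
GATA matches were the letters AGATAA or TGATAA, and likewise AGATAG or TGATAG, on both strands. Among 41 windows of the 30 Ube2 genes that have one, 2 held a match, the inner window of Ube2h, where the motif begins at position -204 from the start, and the window of Ube2s. The same search found a match in 26.6% of all 32817 windows and in 16.6% of the 8570 windows of measured genes. The member windows had a median GC content of 68.4% and a median of 23 CpG, where all windows had a mean GC content of 53.2% and a median of 6 CpG. These are matches of letters and not sites of binding.

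The summed level of the family differed little between libraries on deposited FPKM, but not at TPM scaling. The members' summed FPKM was 943 and 948 in the knockout at 24 and 0 h, and 987 and 998 in wild type at 24 and 0 h. The log2 ratio of these sums was -0.01 for 24 h against 0 h in the knockout and -0.02 in wild type, and at TPM scaling 1.08 and 0.23. A typical E2 gene stood above a typical gene, with a median of 18.5 and 18.2 FPKM over the measured members in the knockout at 24 and 0 h, and 18.4 and 18.9 FPKM in wild type at 24 and 0 h. The median of all measured genes lay between 11.02 and 12.4 FPKM. Ube2s, which extends chains on substrates of the anaphase-promoting complex, ranked first in every library and gave between 16.1% and 18.4% of the members' sum. The 5 highest members together gave between 48.7% and 53.8% of it. Ube2d3, a broad-acting E2 that places the first ubiquitin on many substrates, was also among these 5 in all 4 libraries.

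**Figure D1:**
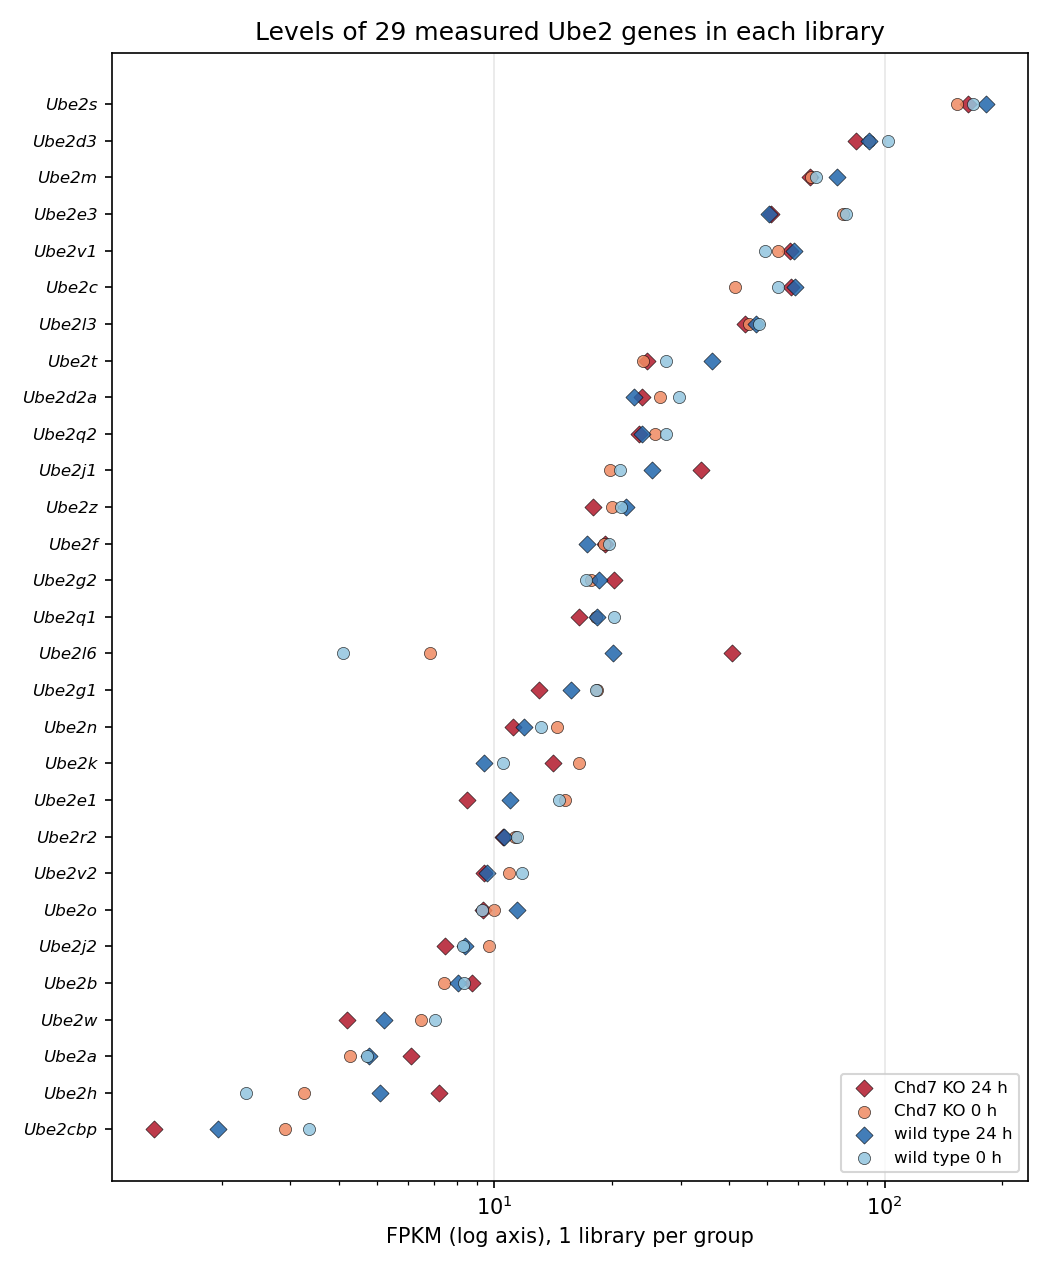
FPKM (log axis) of 29 measured Ube2 genes, with 1 point per library. Most genes show 4 overlapping points, while those of Ube2l6 spread over 4.09 to 40.5 FPKM and those of Ube2s sit at the top between 153 and 182 FPKM.

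At 24 h against 0 h most members differed by less than 1.5-fold on deposited FPKM, while at TPM scaling 25 of the 30 were at least 1.5-fold higher in the knockout and 3 in wild type. The median of all genes at TPM scaling was 0.83 in the knockout, above the log2 of 1.5-fold (0.585), so most genes passed there too. In wild type it was 0.11. In the knockout 1 of 30 members was at least 2-fold higher, where 3.38% of all measured genes were, and none was at least 2-fold lower, where 3.64% were. In wild type 1 of 30 was at least 2-fold higher, where 1.86% of all genes were, and none was 2-fold lower, where 1.06% were. The gene was Ube2l6 in both. At 1.5-fold the knockout had 3 members higher (Ube2h, Ube2j1 and Ube2l6), where 8.4% of all genes were, and 3 lower (Ube2cbp, Ube2e1 and Ube2e3), where 13.9% were. Wild type had 2 higher (Ube2h and Ube2l6), where 4.6% were, and 1 lower (Ube2e3), where 6.64% were. The median log2 ratio of the members was -0.11 in the knockout and -0.07 in wild type, beside -0.12 and -0.11 for all genes in the same cells. Within 1.5-fold lay 24 of the 30 members in the knockout (80% against 77.7% of all genes) and 27 in wild type (90% against 88.8%). These shares are near those of all genes. Beyond the counting half-width on deposited FPKM were 6 members higher and 11 lower in the knockout, where 21.9% and 43.7% of the 8275 measured genes with a coding length were. In wild type 9 were higher and 8 lower, where 18.5% and 40.6% were. At TPM scaling 13 members were at least 2-fold higher in the knockout and 2 in wild type. The 2-fold counts of all genes at that scaling were 3043 higher and 39 lower in the knockout, where FPKM gave 303 and 326, and 269 and 49 in wild type, where FPKM gave 167 and 95.

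**Figure D2:**
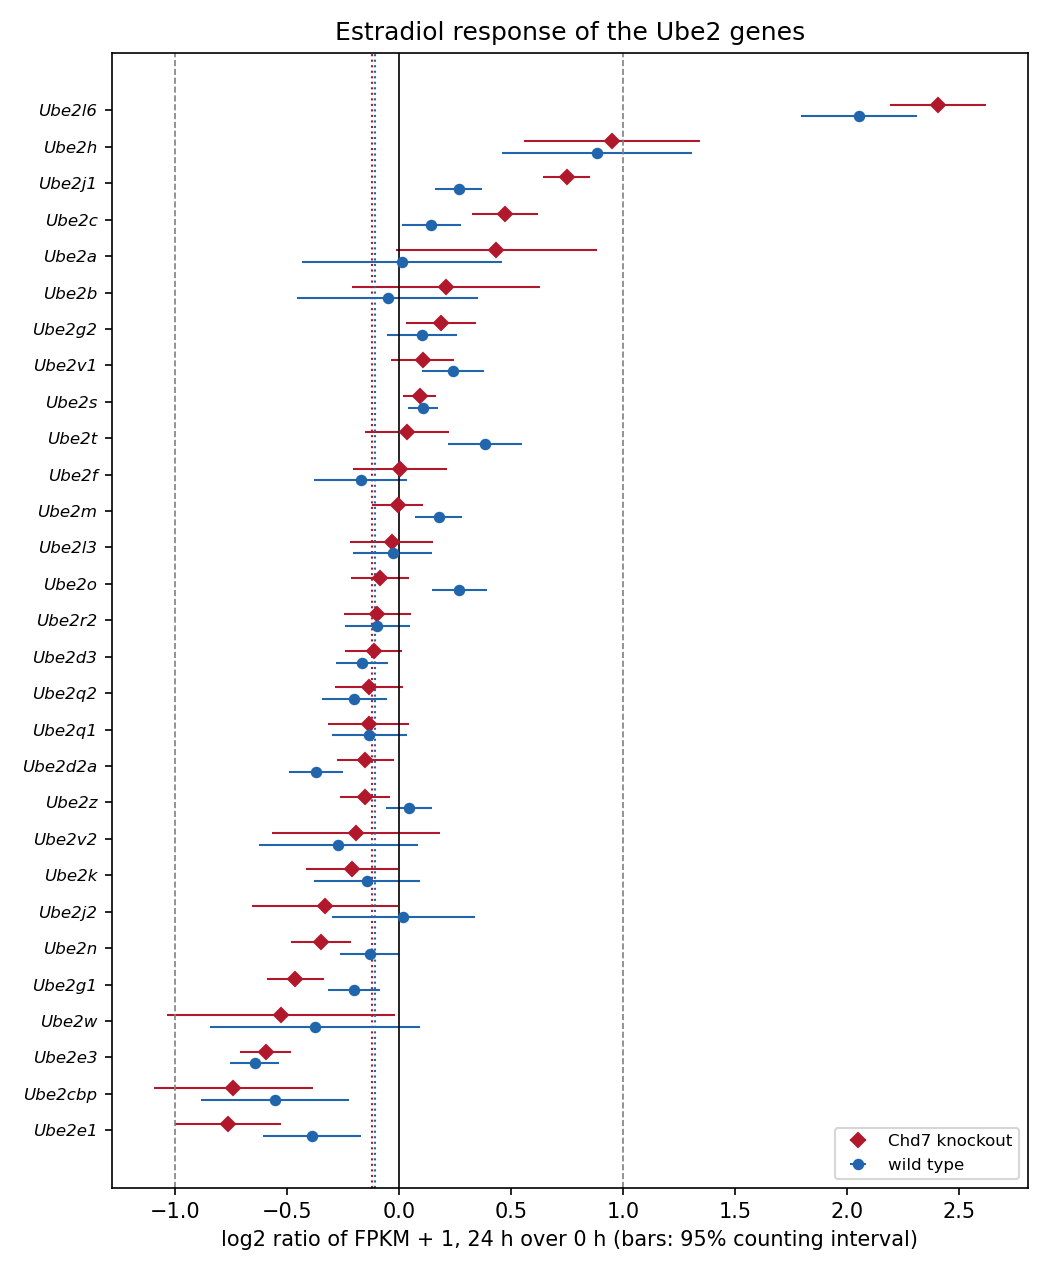
Log2 ratio of FPKM + 1 at 24 h against 0 h for 29 measured Ube2 genes in knockout and wild-type cells, with bars for the 95% half-width from counting alone and dotted lines at the median of all genes. Ube2l6 stands at 2.41 in the knockout and 2.05 in wild type and Ube2h next at 0.95 and 0.88; Ube2e1 and Ube2e3 lie below 0 on deposited FPKM, but above 0 in the knockout at TPM scaling.

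Ube2l6 had the largest response of the family in each genotype. It encodes an E2 that can be charged with ubiquitin or with the ubiquitin-like protein ISG15. Its level was 40.5 and 6.83 FPKM in the knockout at 24 and 0 h, and 20.1 and 4.09 FPKM in wild type at 24 and 0 h. Both 24 h libraries were thus above both 0 h libraries, and at each time the knockout was the higher on deposited FPKM, though at TPM scaling slightly the lower at 0 h. The ratio of FPKM at 24 h to 0 h was 5.93 in the knockout and 4.92 in wild type. On the log2 scale this was 2.41 with a half-width of 0.21 in the knockout and 2.05 with a half-width of 0.26 in wild type. Relative to the median it was 2.53 and 2.16, and at TPM scaling 2.55 in the knockout. The response in the knockout exceeded that in wild type by 0.35 with a half-width of 0.34. Relative to the median this excess was 0.38, and 0.31 with 0.1 FPKM added in place of 1 FPKM. The second value is below that half-width, so whether the excess passes it depends on the added constant.

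The rank of Ube2l6 within the family changed accordingly, to 9th in the knockout at 24 h, against 26th at 0 h, and to 14th in wild type at 24 h, against 28th at 0 h. Its nearest relative Ube2l3 serves E3 ligases that take the ubiquitin onto their own cysteine. Ube2l3 had 43.8 and 44.9 FPKM in the knockout at 24 and 0 h, and 46.7 and 47.7 FPKM in wild type at 24 and 0 h, a level that differed little between libraries. The level of Ube2l6 over that of Ube2l3 was thus 0.925 and 0.152 in the knockout at 24 and 0 h, and 0.431 and 0.0857 in wild type at 24 and 0 h. The 2 coding sequences are 60.9% identical. Of the 50-base words of Ube2l6 transcripts 3.44% occur in other genes, and of those of Ube2l3 14.4%, so Ube2l3 is the less certain of the pair. An opposite-strand gene, Ydjc, shares 1670 exonic bases with Ube2l3, and the sources used here do not say whether counting used strand.

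The partners of UBE2L6 in the ISG15 pathway were mostly not measured. Uba7, the E1 that charges UBE2L6 with ISG15, had 25.8 and 6.38 FPKM in the knockout at 24 and 0 h, and 17.5 and 9.58 FPKM in wild type at 24 and 0 h. It was therefore highest in the same library as Ube2l6, but at 0 h it was lower in the knockout. The log2 ratio at 24 h against 0 h was 1.86 with a half-width of 0.16 in the knockout and 0.81 with a half-width of 0.15 in wild type, a difference of 1.05. Isg15 itself was listed at 0 in 3 libraries and at 0.109 FPKM in wild type at 0 h, and Herc6, the main ISG15 ligase of mice, at 0 in all 4. Usp18, which removes ISG15, had between 0.120 and 0.412 FPKM. Of 14 interferon-stimulated genes 2 were measured. Of these, Bst2, which encodes an antiviral membrane protein, had 2.00 and 4.73 FPKM in the knockout at 24 and 0 h, and 2.66 and 4.30 FPKM in wild type at 24 and 0 h. On deposited FPKM the list summed to 11.3 and 13.7 FPKM in the knockout at 24 and 0 h. In wild type it summed to 14.1 and 16.5 FPKM at 24 and 0 h. The order of these sums depends on the scaling, and the list's part in the Ube2l6 values was not tested. The erythroid marker sum given above was higher in both 24 h libraries and highest in the knockout at 24 h, and its part in the Ube2l6 values was not tested.

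Ube2h was the second member that was at least 1.5-fold higher at 24 h in both genotypes on deposited FPKM. Its level was 7.21 and 3.24 FPKM in the knockout at 24 and 0 h, and 5.10 and 2.31 FPKM in wild type at 24 and 0 h. The ratio of FPKM was 2.22 in the knockout and 2.21 in wild type. At these low levels the added 1 FPKM lowers the log2 ratio to 0.95 with a half-width of 0.39 in the knockout and 0.88 with a half-width of 0.42 in wild type. With 0.1 FPKM added in place of 1 FPKM, Ube2h counted as at least 2-fold higher in both genotypes. The difference of the 2 responses was 0.07 with a half-width of 0.58, and 9.27% of its 50-base words occur in other genes.

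UBE2H works with the CTLH complex, whose 11 listed genes were all measured. In the knockout 3 of the 11 were at least 1.5-fold higher at 24 h and none lower, where 8.4% and 13.9% of all genes were, with a list median of 0.15 beside -0.12 for all genes. In wild type none passed in either direction on deposited FPKM, where 4.6% and 6.64% of all genes did. The list median there was -0.07 beside -0.11. The 3 genes that passed in the knockout were Ranbp10, Gid8 and Ypel5. Their wild-type log2 ratios were 0.55, 0.49 and 0.41 on deposited FPKM, and 0.78, 0.72 and 0.64 at TPM scaling. At TPM scaling these 3 thus passed 1.5-fold in wild type too. In the knockout all 11 then did, where the median of all genes was 0.83. Gid8, a scaffold subunit, had 28.3 and 14.4 FPKM in the knockout at 24 and 0 h, and 19.4 and 13.6 FPKM in wild type at 24 and 0 h. Ranbp10, a second scaffold subunit, had 10.98 and 5.12 FPKM in the knockout at 24 and 0 h, and 7.44 and 4.75 FPKM in wild type at 24 and 0 h. Ypel5, whose protein associates with the complex, had 11.3 and 5.76 FPKM in the knockout at 24 and 0 h, and 9.26 and 6.71 FPKM in wild type at 24 and 0 h. All 3 were thus higher at 24 h in both genotypes and highest in the knockout at 24 h. For Ypel5 the log2 ratio of knockout to wild type at 24 h was 0.26, within its half-width of 0.33. Maea, the ring-type catalytic subunit, differed from them, with 54.6 and 71.5 FPKM in the knockout at 24 and 0 h, and 45.9 and 48.4 FPKM in wild type at 24 and 0 h. The difference of the responses had a list median of 0.31, with 9 of 11 genes above 0. For all genes the median was -0.02 and the upper quartile 0.16.

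**Figure D3:**
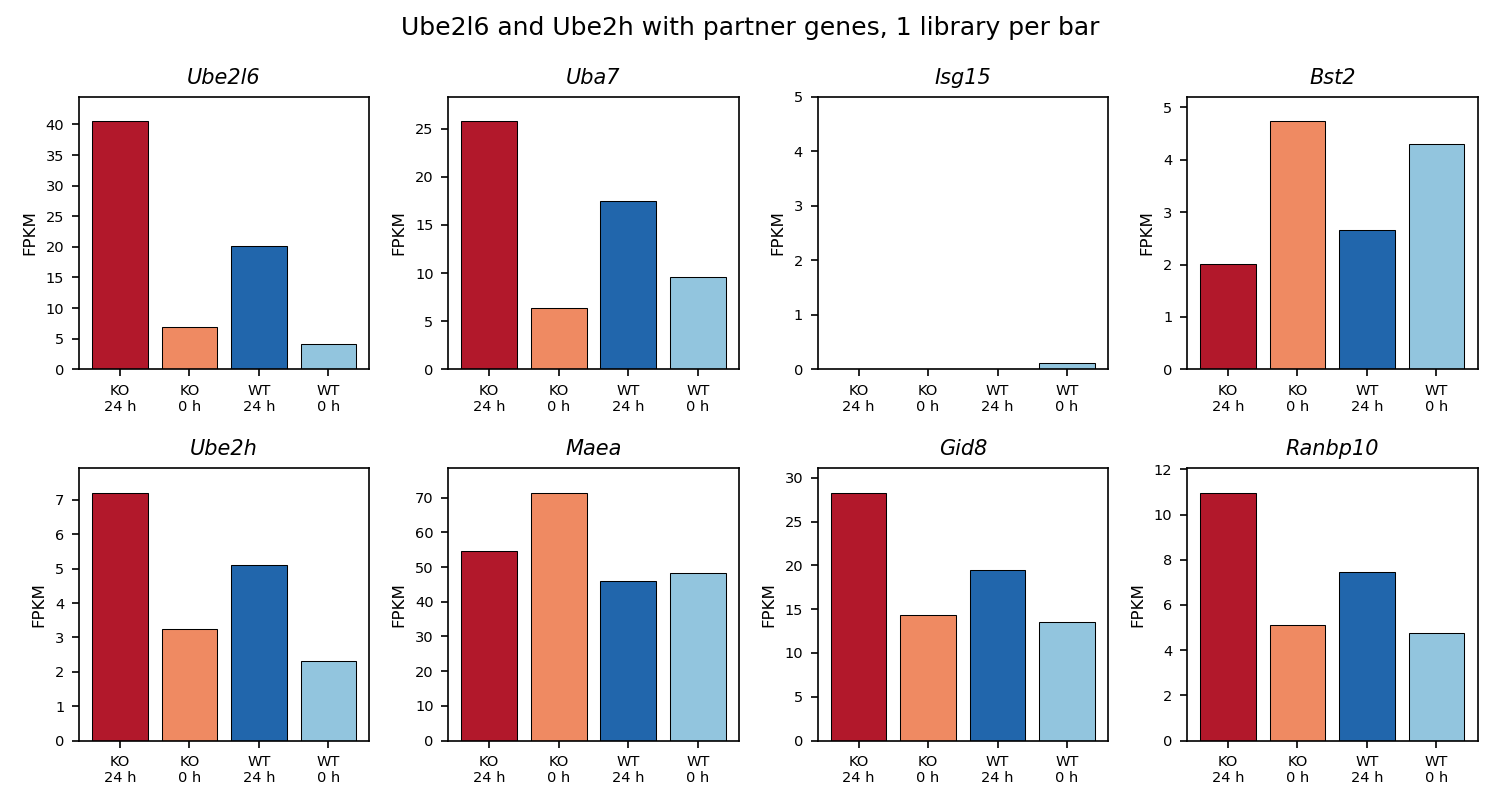
FPKM of Ube2l6, Ube2h and partner genes, with 1 bar per library; the scale of the vertical axis differs between panels. Ube2l6 and Uba7 are highest in the knockout at 24 h (40.5 and 25.8 FPKM), while Isg15 is at or near 0 in every library.

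Ube2o, the third E2 tied to red cell maturation, did not share this pattern. It had 9.33 and 9.96 FPKM in the knockout at 24 and 0 h, and 11.4 and 9.29 FPKM in wild type at 24 and 0 h. Wild type at 24 h was the highest of the 4, and the other 3 libraries lay close together. The log2 ratio at 24 h against 0 h was -0.09 with a half-width of 0.13 in the knockout and 0.27 with a half-width of 0.12 in wild type. The difference of the responses was -0.36 with a half-width of 0.18, or -0.33 relative to the median. At TPM scaling the difference was 0.40, or -0.33 relative to that scaling's median. The sign of the plain difference thus depends on the scaling, while the value relative to the median was alike under both. Ube2o has a coding sequence of 3867 bases, and none of its 50-base words occurs in another gene.

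The mitotic E2 enzymes were among the most abundant members. UBE2C starts ubiquitin chains on substrates of the anaphase-promoting complex and UBE2S extends them. Ube2c had 57.7 and 41.2 FPKM in the knockout at 24 and 0 h, and 59.0 and 53.3 FPKM in wild type at 24 and 0 h. The knockout at 0 h was thus the low library, and the other 3 lay close together. The log2 ratio at 24 h against 0 h was 0.47 with a half-width of 0.15 in the knockout and 0.14 with a half-width of 0.13 in wild type. Knockout against wild type it was -0.03 at 24 h and -0.36 at 0 h, with half-widths of 0.13 and 0.15. Ube2s had 163 and 153 FPKM in the knockout at 24 and 0 h, and 182 and 169 FPKM in wild type at 24 and 0 h. Its 2 wild-type libraries were above its 2 knockout libraries on deposited FPKM, by less than 1.5-fold. Ube2s shares 183 exonic bases with the opposite-strand gene Rpl28, which reached 1773 FPKM, and Ube2c shares 592 with Tnnc2, which was listed at 0.

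Mitotic genes as a group were also lower in the knockout than in wild type at 0 h. Of 18 listed mitotic genes none was above 0 for knockout against wild type at 0 h. Their median was -0.25, beside -0.07 for all genes. At 24 h 3 were above 0, with a median of -0.18 beside -0.09. Most measured genes were also below 0 in both comparisons, as the all-gene medians show. The lower quartile of all genes was -0.19 at 0 h and -0.27 at 24 h, so the mitotic median lay below it at 0 h only. Cyclin B2 (Ccnb2) passed 2-fold, with 42.5 FPKM in the knockout and 99.6 FPKM in wild type at 24 h, and 22.5 FPKM in the knockout and 76.4 FPKM in wild type at 0 h. Their part in the Ube2c values was not tested. None of the 17 genes of the anaphase-promoting complex and its coactivators reached 1.5-fold in any of the 5 comparisons on deposited FPKM. Of all genes 77.7% also stayed within it at 24 h against 0 h in the knockout. At TPM scaling all but Anapc4 and Anapc10 were at least 1.5-fold higher in that comparison, with Anapc13 at 1.44 and Cdc20 at 1.24. The median of all genes was 0.83 there. Cdc20, a coactivator, had 70.8 and 62.7 FPKM in the knockout at 24 and 0 h, and 98.7 and 79.0 FPKM in wild type at 24 and 0 h.

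The broad chain starters of the UBE2D and UBE2E groups were lower or level at 24 h on deposited FPKM, while at TPM scaling all 4 genes below turned above 0 in the knockout and Ube2d3 in wild type too. Ube2e3 had 51.3 and 78.0 FPKM in the knockout at 24 and 0 h, and 50.6 and 79.6 FPKM in wild type at 24 and 0 h. The 2 genotypes were close at each time and both 24 h libraries were below both 0 h libraries. The log2 ratio was -0.60 in the knockout and -0.64 in wild type, each with a half-width of 0.11, or -0.47 and -0.54 relative to the median. At TPM scaling the knockout ratio was 0.48, which is -0.35 relative to that scaling's median. Ube2e3 ranked 7th of the family in both 24 h libraries and 4th in both 0 h libraries.

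Ube2e1, a relative with the same kind of N-terminal extension, had 8.52 and 15.2 FPKM in the knockout at 24 and 0 h, and 10.9 and 14.6 FPKM in wild type at 24 and 0 h. The knockout at 24 h was its lowest library, and the log2 ratio was -0.76 with a half-width of 0.24 in the knockout and -0.39 with a half-width of 0.22 in wild type. At TPM scaling the knockout ratio was 0.24. In both genotypes Ube2e1 made up a minor share of the Ube2e1 and Ube2e3 sum, between 14.3% and 17.8%. Ube2d3 had 84.2 and 91.2 FPKM in the knockout at 24 and 0 h, and 91.0 and 102 FPKM in wild type at 24 and 0 h. Ube2d2a had 23.8 and 26.6 FPKM in the knockout at 24 and 0 h, and 22.8 and 29.7 FPKM in wild type at 24 and 0 h. The Ube2d2a and Ube2d3 coding sequences are 83.4% identical, and 16.2% of the 50-base words of Ube2d2a occur in other genes.

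The E2 enzymes of the endoplasmic reticulum did not move together. UBE2J1 and UBE2J2 are anchored in its membrane and UBE2G2 is recruited to it, and all serve the degradation of misfolded proteins. Ube2j1 had 33.9 and 19.8 FPKM in the knockout at 24 and 0 h, and 25.4 and 20.9 FPKM in wild type at 24 and 0 h. Both 24 h libraries were above both 0 h libraries, with the knockout highest, and the log2 ratio was 0.75 with a half-width of 0.10 in the knockout and 0.27 with a half-width of 0.11 in wild type. The difference of the responses, 0.48 with a half-width of 0.15, was the largest positive one in the family. Ube2j2 had 7.49 and 9.67 FPKM in the knockout at 24 and 0 h, and 8.41 and 8.29 FPKM in wild type at 24 and 0 h. Ube2j1 thus made up 81.9% and 67.1% of the pair's sum in the knockout at 24 and 0 h, and 75.1% and 71.6% in wild type at 24 and 0 h.

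Ube2g2 differed by less than 1.5-fold on deposited FPKM, with 20.3 and 17.7 FPKM in the knockout at 24 and 0 h, and 18.5 and 17.2 FPKM in wild type at 24 and 0 h. Its log2 ratio at 24 h against 0 h in the knockout was 0.19 with a half-width of 0.16, and 1.22 at TPM scaling. None of the 10 measured partner genes of this degradation route reached 1.5-fold in any comparison on deposited FPKM. Of all genes 77.7% to 95.9%, depending on the comparison, also stayed within it. At TPM scaling all 10 were at least 1.5-fold higher at 24 h in the knockout, where the median of all genes was 0.83. Ube2g1, whose protein extends chains for cullin ligases, had 13.0 and 18.3 FPKM in the knockout at 24 and 0 h, and 15.7 and 18.2 FPKM in wild type at 24 and 0 h. Its lowest library was the knockout at 24 h on deposited FPKM, but at TPM scaling its log2 ratio at 24 h against 0 h in the knockout was 0.56. Ube2r2 and Cdc34, which lies outside the name rule, encode the E2 enzymes best known for SCF ligases. Cdc34 had between 8.55 and 10.2 times the FPKM of Ube2r2, whose level stayed between 10.5 and 11.4 FPKM.

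The E2 enzymes of NEDD8 differed by less than 1.5-fold on deposited FPKM, while at TPM scaling both were at least 2-fold higher at 24 h in the knockout. The median of all genes was 0.83 in that comparison at TPM scaling. Ube2m, an E2 for NEDD8 that works mainly with RBX1 cullins, had 64.4 and 64.7 FPKM in the knockout at 24 and 0 h, and 75.5 and 66.7 FPKM in wild type at 24 and 0 h. Wild type at 24 h was its high library, with a log2 ratio to 0 h of 0.18 and of knockout to wild type at 24 h of -0.23, with half-widths of 0.11 and 0.10. Ube2f, the other NEDD8 E2, had 19.2 and 19.1 FPKM in the knockout at 24 and 0 h, and 17.3 and 19.6 FPKM in wild type at 24 and 0 h. None of the 15 measured SUMO pathway genes reached 1.5-fold in any comparison on deposited FPKM. Depending on the comparison, 77.7% to 95.9% of all genes also stayed within it. Of the 18 NEDD8 pathway genes, Cul4a was at least 1.5-fold higher at 24 h in the knockout on deposited FPKM, where 8.4% of all genes were. Nae1 and Dcun1d4 were at least 1.5-fold lower there, where 13.9% of all genes were. In wild type Dcun1d4 alone was lower, where 6.64% of all genes were. At TPM scaling Nae1 turned to 0.38 in the knockout. Most genes of both lists were then at least 1.5-fold higher at 24 h in the knockout, where the median of all genes was 0.83. Cul4a, a cullin scaffold, had 64.9 and 39.0 FPKM in the knockout at 24 and 0 h, and 49.5 and 45.7 FPKM in wild type at 24 and 0 h.

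Among the E2 enzymes of DNA repair and signalling, Ube2t differed most between the genotypes at 24 h. This gene, which encodes the E2 of the Fanconi anaemia pathway, had 24.7 and 24.0 FPKM in the knockout at 24 and 0 h, and 36.1 and 27.4 FPKM in wild type at 24 and 0 h. Wild type at 24 h was the high library. The log2 ratio of knockout to wild type was -0.53 with a half-width of 0.17 at 24 h and -0.18 with a half-width of 0.19 at 0 h. Ube2a had 6.12 and 4.27 FPKM in the knockout at 24 and 0 h, and 4.76 and 4.71 FPKM in wild type at 24 and 0 h. Its partner Ube2b, the other mouse counterpart of yeast RAD6, had 8.74 and 7.43 FPKM in the knockout at 24 and 0 h, and 8.05 and 8.37 FPKM in wild type at 24 and 0 h. No ratio of either gene passed its half-width. Ube2n had 11.2 and 14.5 FPKM in the knockout at 24 and 0 h, and 11.9 and 13.1 FPKM in wild type at 24 and 0 h. UBE2N builds chains only beside UBE2V1 or UBE2V2, which lack the catalytic cysteine. Ube2v2 ranged from 9.39 to 11.7 FPKM and Ube2v1 from 49.4 to 58.6 FPKM, but 81.3% of the 50-base words of Ube2v1 occur in other genes, including a same-strand readthrough locus that shares 1673 exonic bases. None of 12 partner genes of this group reached 1.5-fold in any comparison on deposited FPKM, where 77.7% to 95.9% of all genes stayed within it. At TPM scaling all but Shprh were at least 1.5-fold higher at 24 h in the knockout, where the median of all genes was 0.83.

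Of the remaining members, Ube2q1 ranged from 16.4 to 20.2 FPKM, Ube2q2 from 23.4 to 27.6 FPKM and Ube2z, which is charged by the E1 UBA6, from 17.9 to 21.7 FPKM. Ube2w, which modifies the N termini of proteins, had 4.20 and 6.48 FPKM in the knockout at 24 and 0 h, and 5.20 and 7.04 FPKM in wild type at 24 and 0 h. Ube2cbp encodes a protein that binds UBE2C and is not itself an E2. It had 1.34 and 2.91 FPKM in the knockout at 24 and 0 h, and 1.960 and 3.34 FPKM in wild type at 24 and 0 h. Both 24 h libraries were thus below both 0 h libraries on deposited FPKM. At TPM scaling wild type at 24 h (2.51 TPM) was above the knockout at 0 h (1.81 TPM). The log2 ratio at 24 h against 0 h in the knockout was then -0.02.

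Above the E2 layer, 10 of 10 listed E1 genes were measured. On deposited FPKM Uba7 was the 1 gene at least 1.5-fold higher at 24 h in the knockout and in wild type. Of all genes 8.4% and 4.6% were. Uba6 was at least 1.5-fold lower in both and Nae1 in the knockout. Lower by that rule were 13.9% of all genes in the knockout and 6.64% in wild type. At TPM scaling Uba6 and Nae1 turned to 0.05 and 0.38 in the knockout, where most E1 genes were then at least 1.5-fold higher. The median of all genes was 0.83 there. Uba6 had 5.97 and 12.2 FPKM in the knockout at 24 and 0 h, and 5.16 and 9.05 FPKM in wild type at 24 and 0 h. Uba1, the main ubiquitin E1, had 80.9 and 91.3 FPKM in the knockout at 24 and 0 h, and 91.7 and 106.5 FPKM in wild type at 24 and 0 h. None of the 4 ubiquitin precursor genes reached 1.5-fold in any comparison on deposited FPKM, where 77.7% to 95.9% of all genes stayed within it. Of 8 measured E2-fold genes with other names, Tsg101 alone passed 1.5-fold on deposited FPKM. It was higher at 24 h in the knockout, where 8.4% of all genes were. It had 14.9 and 9.24 FPKM in the knockout at 24 and 0 h, and 10.5 and 9.27 FPKM in wild type at 24 and 0 h. At TPM scaling all 4 precursor genes and most of these 8 were at least 1.5-fold higher at 24 h in the knockout. Ubb stood at 1.37 there, and the median of all genes at 0.83.

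Between the genotypes few members differed. No member was at least 2-fold higher or lower in the knockout at 24 h, where 0.714% and 1.14% of all genes were, or at 0 h, where 0.435% and 0.647% were. Ube2l6 at 24 h missed 2-fold through the added 1 FPKM, with a log2 ratio of 0.98, and passed it with 0.1 FPKM added and at TPM scaling. At 1.5-fold Ube2l6 was higher in the knockout at 24 h, where 3.51% of all genes were, and Ube2k and Ube2l6 at 0 h, where 1.83% were, though at TPM scaling both turned to -0.14 and -0.05 at 0 h. No member was at least 1.5-fold lower on deposited FPKM, where 5.02% of all genes were at 24 h and 2.31% at 0 h. At TPM scaling 26 of the 30 were at 0 h and Ube2c was 2-fold lower, where the median of all genes was -0.78. The member median was -0.06 at 24 h beside -0.09 for all genes, and -0.07 at 0 h beside -0.07. Beyond the counting half-width on deposited FPKM were 4 members higher and 8 lower in the knockout at 24 h, where 18.8% and 36.8% of all genes were. At 0 h 2 were higher and 4 lower, where 12.3% and 28.7% were. At TPM scaling 28 genes of all were 2-fold higher and 1111 lower in the knockout at 0 h, where FPKM gave 39 and 58.

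**Figure D4:**
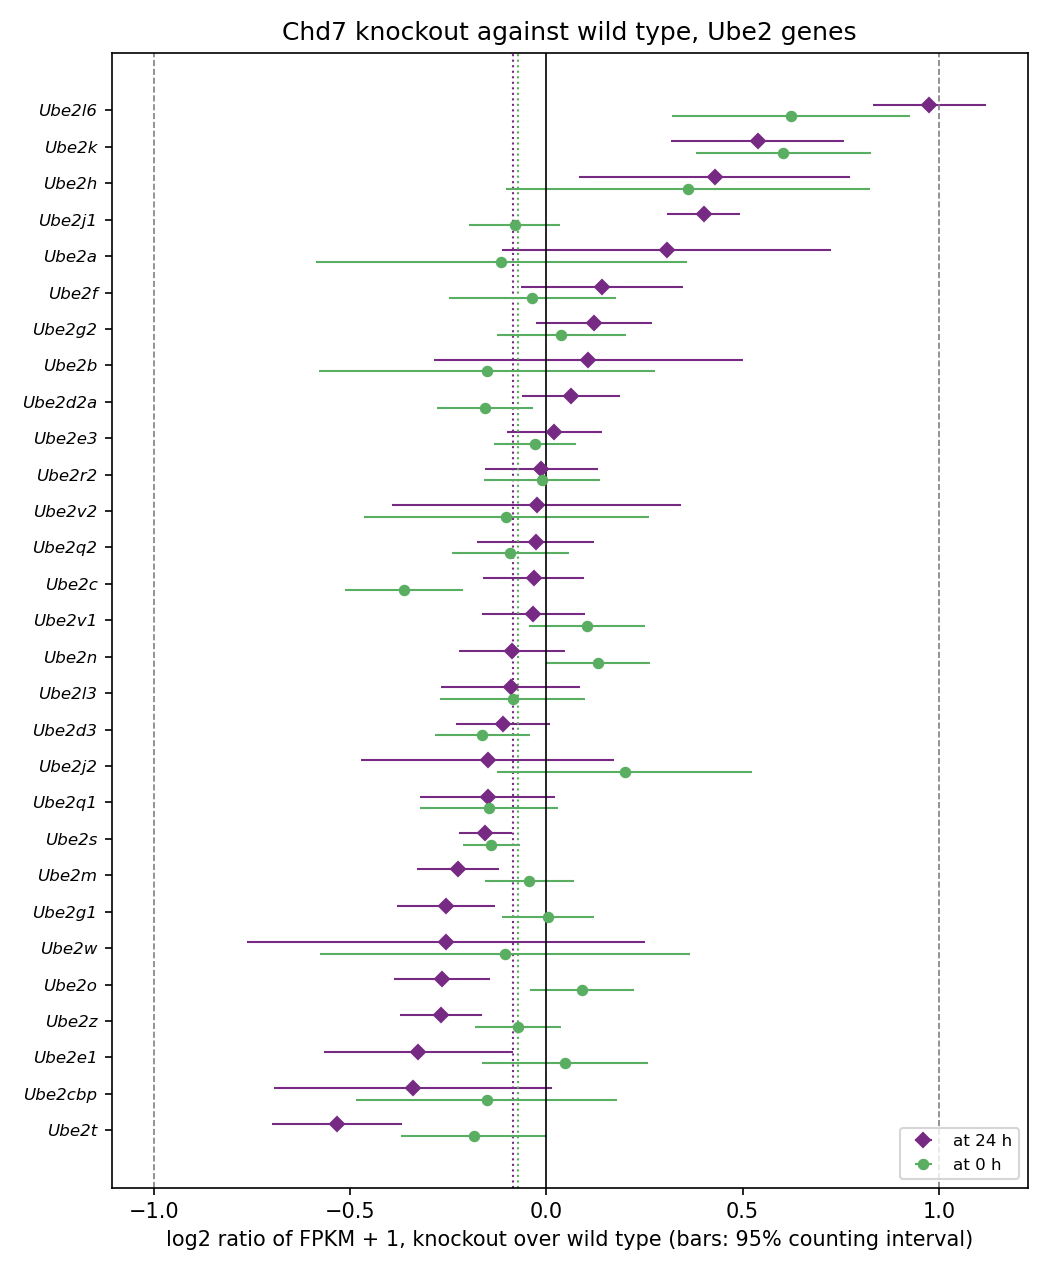
Log2 ratio of FPKM + 1 in knockout against wild-type cells for 29 measured Ube2 genes at 24 h and at 0 h, with bars for the 95% half-width from counting alone and dotted lines at the median of all genes. Ube2l6 (0.98 and 0.62) and Ube2k (0.54 and 0.60) lie right of 0 at both times on deposited FPKM, but both are slightly left of 0 at 0 h at TPM scaling, where they stay above that scaling's median.

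For Ube2l6 the ratio of FPKM in knockout to wild type was 2.02 at 24 h and 1.67 at 0 h. The log2 ratio was 0.98 with a half-width of 0.14 at 24 h and 0.62 with a half-width of 0.30 at 0 h. Relative to the median it was 1.06 and 0.69, and at TPM scaling 1.07 and 0.73. The erythroid marker sum was also higher in the knockout at both times on deposited FPKM, though at 0 h not at TPM scaling (669.6 TPM in the knockout and 913 TPM in wild type), and its part in this difference was not tested.

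Ube2k encodes an E2 that builds degradation-type ubiquitin chains. It had 14.1 and 16.5 FPKM in the knockout at 24 and 0 h, and 9.42 and 10.5 FPKM in wild type at 24 and 0 h. Both knockout libraries were above both wild-type libraries, and within a genotype the 2 times differed little; at TPM scaling the order at 0 h turned. The log2 ratio of knockout to wild type was 0.54 at 24 h and 0.60 at 0 h, each with a half-width of 0.22. Relative to the median these were 0.62 and 0.68, and at TPM scaling 0.64 and 0.64. Ube2k lies on chromosome 5 (chr5:65537245-65598989), where the level of most genes differed between the 2 lines. The 548 measured genes of chromosome 5 had a median log2 ratio of 0.34 at 24 h and 0.40 at 0 h, beside -0.11 and -0.09 for the other chromosomes. The ratio of Ube2k exceeded that of 75.7% of these genes at 24 h and of 89.2% at 0 h, so it lay in the upper part of that chromosome's range.

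The 7 measured partner genes on chromosome 5 were also higher in the knockout on deposited FPKM, while at TPM scaling 1 of them was above 0 at 0 h. Maea had log2 ratios of knockout to wild type of 0.25 and 0.55, Uba6 of 0.18 and 0.39 and Dcun1d4 of 0.44 and 0.85 at 24 and 0 h. Of the anaphase-promoting complex, Anapc4 had 0.23 and 0.42, Anapc5 0.37 and 0.42 and Anapc7 0.16 and 0.33. At TPM scaling all 7 stayed above the median of all genes at both times, and above 0 at 24 h. A chromosome-wide difference and the loss of CHD7 cannot be told apart in these libraries.

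On deposited FPKM the difference of the responses, knockout minus wild type, reached 1.5-fold for none of the 30 members. Of all genes 2.96% did upward and 2.8% downward, and at 2-fold 0.602% and 0.625% did. At TPM scaling 22 members reached 1.5-fold upward and 5 of them 2-fold, where the median of all genes was 0.72. At that scaling 1327 of all genes reached 2-fold upward and 25 downward, where FPKM gave 54 and 56. Beyond the counting half-width were 4 members upward (Ube2c, Ube2d2a, Ube2j1 and Ube2l6) and 7 downward (Ube2e1, Ube2g1, Ube2m, Ube2n, Ube2o, Ube2t and Ube2z) on deposited FPKM, where 15.1% and 20.9% of all genes were. Of these, Ube2l6 passed narrowly, with 0.35 against a half-width of 0.34. Relative to the median its difference was 0.31 with 0.1 FPKM added. At TPM scaling 17 of the 30 members had the other sign of the difference of responses. The median difference of the members was -0.00 beside -0.02 for all genes, and their median size was 0.18, as for all genes.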

How the data were processed

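Libraries were made with ScriptSeq v2 from ribosomal-depleted total RNA of G1ER cells, per the labels' protocols. The authors deposited FPKM, 1 value per gene and library, and per the submitters' processing notes the build was GRCm38 and the tools included TopHat2 2.0.11 and Cufflinks 2.2.1, besides FastQC and cutadapt. The sources used here do not give the annotation, the scaling between libraries, the use of strand or the handling of multi-mapping reads. A stray header row (1) was dropped. Rows with symbols beginning with Ube2 were taken, without those holding -ps or a comma. The members, gene lists and rules were chosen with earlier results of these data known. The Ube2 genes are named by the rule that chose them, and partner genes from the lists. The values of 1 measured member and of some partner genes are not reported here, and counts and medians include them.

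Log2(FPKM + 1) ratios were computed in 5 comparisons for genes averaging 1 FPKM or more, with a 2-fold and a 1.5-fold rule. With 1 library per group no test was run, nor was a model with added effects of genotype and time fitted. Depth was approximated from the FPKM step of 1 fragment in 788 single-transcript genes of at least 3000 bases. Of the low values used, 58.1% to 66.7% were whole within 0.1 fragment, where chance gives 20% for a depth not fitted to them. The depths came from these same values, so the excess over 20% is not a test of them. Depths are therefore approximate, no count test was run, and half-widths (95%) cover counting error only. They use the shortest coding GENCODE M21 transcript. Sequences are from RefSeq (GRCm38.p6), and positions matched for 37 members. The alternatives were added constants of 0.1 and 5 FPKM, a minimum mean of 5 FPKM or none, equal-sum (TPM), median and upper-quartile scaling, and leaving out small RNA and predicted loci. The calculations were tested on simulated data. Python 3.11.15, numpy 2.4.6, pandas 2.3.3, Biopython 1.88 and matplotlib 3.10.9 were used.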

Additional observations from a re-analysis of the deposited data

How the results depend on the processing

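The alternatives gave 120 values of the members' counts and of their median minus the median of all genes. Of these, 106 stayed within 1.5 times the main count or within 0.1 (log2) of the main difference of medians, and 14, all counts, moved. The difference of medians lay between -0.00 and 0.04 in the 5 comparisons and between -0.03 and 0.07 under the alternatives, with the other sign in 8 of 40. The members' own median, not set against all genes, was 0.90 at 24 h against 0 h in the knockout at TPM scaling, where FPKM gave -0.11. The number of members at least 2-fold higher at 24 h in the knockout was 2 with median-centred or upper-quartile scaling or 0.1 FPKM added, through Ube2h, and 13 at TPM scaling, in place of 1. The number in wild type was 2 with 0.1 FPKM added and at TPM scaling, again through Ube2h. The number 2-fold higher in the knockout at 24 h against wild type was 1, Ube2l6, with median-centred, upper-quartile or TPM scaling, with 0.1 FPKM added and with small RNA and predicted loci left out, in place of 0. At TPM scaling 5 members had a difference of responses of at least 2-fold upward and 1, Ube2c, was 2-fold lower in the knockout at 0 h, in place of 0 each. With 0.1 FPKM added, Ube2cbp was the 1 member 2-fold lower at 24 h in the knockout. Of 1185 values of single members 1055 stayed within their counting half-width and 130 moved, 111 of them at TPM scaling. Other scalings also moved the split of all 2-fold calls. For 24 h against 0 h the higher share was 61.1% with median centring in the knockout, where FPKM gave 48.2%, and 75% in wild type, where FPKM gave 63.7%. No paired analysis was possible because the groups share fewer than 2 replicate numbers, each holding 1 library, and no library could be left out of a comparison. Depth limits the lowest members, with a half-width of 0.58 for the difference of responses of Ube2h.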
